A study of Mus musculus with 6 samples.

Results

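The 45 genes described here, of 26264 in the count table, include 22 for enzymes and transporters of glycolysis. Another 14 encode enzymes of pyruvate entry and the TCA cycle. The other 9 are hypoxia targets with alpha subunits of the hypoxia-inducible factors, encoded by Hif1a and Epas1. All 45 were chosen by symbol, with earlier results of these data known, and each had enough counts to be tested. Bulk RNA sequencing covered 6 libraries of neural stem cells cultured from the adult mouse spinal cord on a C57BL6J background, grown with EGF and FGF2 in medium with N2 and B27 supplements and sorted by fluorescence. The 3 GFP-positive libraries carry the genotype label PDGFRaGFP/+, and the 3 GFP-negative libraries the label PDGFRaGFP/-. The labels describe a sort on GFP and do not say whether these entries name the genotype of the animals or the sorted fraction, so a genotype difference and a difference between fractions cannot be told apart. The GFP reporter follows Pdgfra, the receptor that marks oligodendrocyte precursor cells, and the study addresses how spinal cord stem cells produce oligodendrocyte-lineage cells. Replicates 1, 2 and 3 carry the label numbers 314, 315 and 316 in both fractions. Age, sex and whether a number stands for an animal, a culture or a sorting day were not stated in the labels. The p-values therefore reflect only how far these libraries spread, and that spread may be technical.

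Glycolysis splits glucose into pyruvate in the cytosol. Pyruvate is either reduced to lactate and exported, or enters mitochondria through pyruvate dehydrogenase and is oxidised in the TCA cycle. When oxygen falls, HIF-1alpha and HIF-2alpha escape degradation by prolyl hydroxylases and raise transcription of many glycolytic genes, of pyruvate dehydrogenase kinases and of genes such as Vegfa and Bnip3. In the nervous system astrocytes are known for high glycolytic flux, lactate export and glycogen storage.

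Total counts lay between 31067850 and 45207335 per library. CPM values below are counts scaled to a common library total after TMM. A fold change is the log2 level with GFP minus that without, from edgeR. Pdgfra, the check of the sort, stood at 237, 205 and 245 CPM in the GFP-positive libraries and 8.04, 19.3 and 13.9 CPM in the GFP-negative ones. The stem cell genes Nes and Sox2 were detected in both fractions, at means of 294 and 242 CPM in the GFP-positive libraries, and 926 and 318 CPM in GFP-negative cells. Of 10 astrocyte markers, 9 were lower and 1 (Sox9) higher in GFP-positive cells, and their summed level ran from 1072 to 1149 CPM there against 3797 to 4526 CPM in GFP-negative cells. Of 10 precursor markers 9 were higher, and the list summed to 8209 to 8940 against 5744 to 5936 CPM. The exception, Ptprz1, made up a large part of both sums, at 2933 to 3326 against 2928 to 3474 CPM, and was not called. Microglial and endothelial markers were low: Tyrobp, C1qa, Cldn5 and Ly6c1 had 0 counts in each library, and the summed endothelial level was at most 10.05 CPM. Of 7 tested neuronal markers 5 were higher (45.6 to 52.8 against 12.7 to 21.2 CPM summed), and of 13 stress and immediate early genes 9 were lower. Of 6 tested ependymal markers 4 were lower (Foxj1, Rfx2, Dnah11 and Rsph1), and that list summed to 135 to 149 against 160 to 162 CPM. Most of that sum was Rfx3, at 128 to 143 against 136 to 143 CPM. Rfx3 was not called, nor was Dnah5 (log2 fold change 0.69). The differences described below run alongside these marker differences, whose part in them was not tested. In bulk libraries, fewer cells of a type and less RNA per cell cannot be told apart.

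Most genes of central carbon metabolism were lower in GFP-positive cells. Of the 45 members, 34 were lower, 1 was higher and 10 were not called (edgeR quasi-likelihood test, Benjamini-Hochberg adjusted p under 0.05 over all tested genes). Over the 14554 tested genes, 29.2% were lower, 26.1% higher and 55.4% called in either direction. The median log2 fold change of the members was -0.54, beside -0.0058 for all tested genes. The shifts were mostly moderate, and 11 members were lower by more than 1 on the log2 scale, where 12.3% of all tested genes were. The groups did not overlap in 35 members. Over all tested genes they did not overlap in 64.2%, with 31.3% higher and 33% lower. The calls above come from a fit that did not pair libraries of the same number. A fit with the numbers as a block called more members lower, as given in the last section, and called 57.3% of all tested genes.

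**Figure D1:**
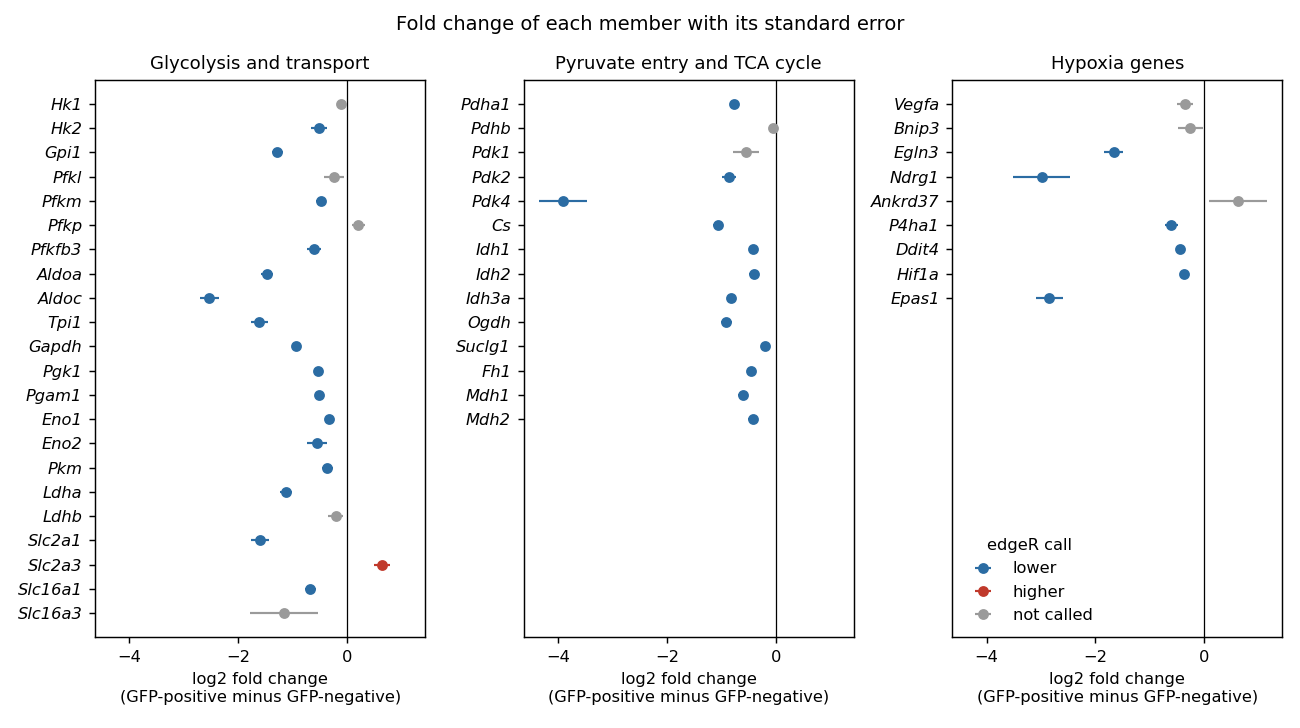
Log2 fold change (x axis, GFP-positive minus GFP-negative) of each of the 45 members with its standard error, in pathway order within each list; blue points were called lower, red higher and grey not called. All but 3 points (Pfkp, Slc2a3 and Ankrd37) lie at or below 0, and Aldoc, Pdk4, Ndrg1 and Epas1 lie farthest to the left.

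In the glycolysis list 16 of 22 members were lower and 1 higher, with a median log2 fold change of -0.54. The counts of the whole list summed to 2264, 2561 and 2445 CPM in GFP-positive replicates 1, 2 and 3 and to 3998, 3829 and 4568 CPM in the GFP-negative ones. Glucose carriers come before the pathway itself, and the 2 listed differed in direction. Slc2a1 (Entrez 20525), the GLUT1 carrier of glia and endothelium, stood at 6.62, 7.90 and 7.18 CPM in the GFP-positive libraries, and 17.3, 21.9 and 26.8 CPM in GFP-negative cells. Each GFP-negative library lay above each GFP-positive one, and the log2 fold change was -1.60 (SE 0.16, edgeR adjusted p = 1.01e-04), a 3.03-fold lower level. Slc2a3 (Entrez 20527), the high-affinity GLUT3 carrier best known from neurons, stood at 30.5, 35.7 and 32.1 CPM in the GFP-positive libraries, and 17.7, 26.2 and 19.2 CPM in GFP-negative cells. It was the only member of the 45 called higher, by 0.64 (SE 0.15, edgeR adjusted p = 0.00628), with no overlap between the groups. Without replicate 3 in both fractions its value was 0.60 and missed the threshold (edgeR adjusted p = 0.0625).

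The hexokinases trap glucose as glucose 6-phosphate. Hk1, the broadly expressed form, was not called (log2 fold change -0.11, SE 0.06), at 113 to 123 CPM in the GFP-positive libraries, and 123 to 136 CPM in GFP-negative cells. It passed at -0.14 with the length and GC trend removed (edgeR adjusted p = 0.0486). Hk2, the inducible form, was at 7.001, 8.87 and 8.43 against 11.3, 13.3 and 10.05 CPM. It was lower, with a value of -0.51 (edgeR adjusted p = 0.0161), and lost its call without GFP-positive replicate 1 (0.0668) and without replicate 1 of both fractions (0.124). Gpi1 (Entrez 14751), which turns glucose 6-phosphate into fructose 6-phosphate, was at 107, 128 and 112 CPM in the GFP-positive libraries, and 267, 257 and 320.5 CPM in GFP-negative cells. The groups were far apart, with a log2 fold change of -1.28 with SE 0.10 (edgeR adjusted p = 2.71e-05).

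Phosphofructokinase makes the first committed step, and its genes moved little. Pfkm, the muscle-type subunit, was lower (-0.49, SE 0.09, edgeR adjusted p = 0.00170), while the liver-type Pfkl and the platelet-type Pfkp had values of -0.23 and 0.21 and were not called. Pfkfb3, which makes the allosteric activator fructose 2,6-bisphosphate, had a value of -0.60 (SE 0.13, edgeR adjusted p = 0.00402). Its call was lost without replicate 3 of both fractions (0.0558).

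Among the enzymes of the pathway, the lowest values came in its middle, where aldolase splits fructose 1,6-bisphosphate and triose phosphate isomerase interconverts its products. Aldoc (Entrez 11676), the aldolase of astrocytes and of some neurons, stood at 76.8, 96.2 and 98.6 CPM in GFP-positive cells. In GFP-negative cells it was at 470, 436 and 662 CPM, and the log2 fold change of -2.53 with SE 0.17 (edgeR adjusted p = 1.36e-05) is a 5.77-fold lower level. Aldoa (Entrez 11674), the form found in most tissues, was at 105, 137 and 117 against 327, 304 and 364 CPM. It was lower by a log2 fold change of -1.47 with SE 0.11 (edgeR adjusted p = 1.88e-05), again with no overlap. Tpi1 (Entrez 21991) had 23.8, 37.7 and 28.8 CPM in the GFP-positive libraries, and 85.0, 91.9 and 99.7 CPM in GFP-negative libraries, a log2 fold change of -1.61 with SE 0.15 (edgeR adjusted p = 7.31e-05).

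From glyceraldehyde 3-phosphate to pyruvate the differences became smaller. Gapdh (Entrez 14433), which reduces NAD+ and is often used as a reference gene, was at 224, 267 and 245 against 471, 443 and 487 CPM, a log2 fold change of -0.93 with SE 0.08 (edgeR adjusted p = 3.12e-05). All 3 GFP-positive libraries lay below all 3 GFP-negative ones. The ATP-forming kinase Pgk1 and the mutase Pgam1 had values of -0.53 and -0.51, with edgeR adjusted p of 5.83e-05 and 3.51e-04. Eno1, the widespread enolase, had a value of -0.34 and lost its call without replicate 3 of both fractions (edgeR adjusted p = 0.0543).

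Eno2, the enolase of neurons, had few counts and a value of -0.55, at 5.07, 5.10 and 3.64 against 5.85, 6.98 and 7.45 CPM. Its call (edgeR adjusted p = 0.0289) was lost without GFP-negative replicate 3 (0.0941), GFP-positive replicate 1 (0.0512), GFP-positive replicate 3 (0.0928), replicate 1 of both fractions (0.0552) and replicate 3 of both (0.232). It was also lost with the transcript length and GC trend removed (0.0513). Pkm, pyruvate kinase, was at 573, 652 and 645 CPM in the GFP-positive libraries, and 832, 681 and 889 CPM in GFP-negative cells. Its groups were separated by a narrow gap, with a value of -0.36 (edgeR adjusted p = 0.0176). The Pkm call was lost without GFP-negative replicate 1 (0.0513) or 3 (0.0645), without GFP-positive replicate 1 (0.0815), and without replicate 1 (0.165) or 3 (0.123) of both fractions. Retrogene copies that the table lists apart had few counts beside their parents: Eno1b stood at 1.93 to 2.79 CPM over the 6 libraries and Aldoart1 at 0.0910 CPM at most. The labels do not say how reads matching several copies were counted, so the levels of Gapdh, Eno1, Pgk1, Pgam1, Aldoa and Ldha are uncertain to that extent.

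At the lactate end, the subunits of lactate dehydrogenase parted. Ldha (Entrez 16828), the subunit that favours lactate formation and a HIF target, was at 90.6, 126 and 94.8 CPM in the GFP-positive libraries, and 223, 226 and 229 CPM in GFP-negative cells. That difference, -1.12 (SE 0.12, edgeR adjusted p = 1.09e-04), was far larger than the spread in either group. Ldhb (Entrez 16832), the subunit associated with lactate use, was at 180, 159 and 198 against 203, 167 and 250 CPM. These groups overlapped and the value of -0.21 was not called (SE 0.14, edgeR adjusted p = 0.244). With the replicate block, which compares libraries of the same number, Ldhb passed at -0.19 (edgeR adjusted p = 0.0369), and without GFP-negative replicate 2 at -0.33 (0.0233).

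Of the monocarboxylate carriers, Slc16a1 (MCT1), which moves lactate and pyruvate, was lower, at -0.67 (edgeR adjusted p = 6.96e-04), at 26.0 to 30.0 against 41.9 to 51.3 CPM. Slc16a3 (MCT4), the hypoxia-inducible lactate exporter, had few counts and differed widely among replicates, at 0.272, 1.83 and 0.517 CPM in the GFP-positive libraries, and 1.64, 2.96 and 1.39 CPM in GFP-negative cells. The groups overlapped through replicate 2 and the value of -1.16 (SE 0.63) was not called, with edgeR adjusted p = 0.150. With the replicate block it was -1.40 and passed (edgeR adjusted p = 0.0129). It also passed without GFP-positive replicate 2, at -2.32 (0.00808), and without replicate 2 of both fractions, at -1.92 (0.00544).

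**Figure D2:**
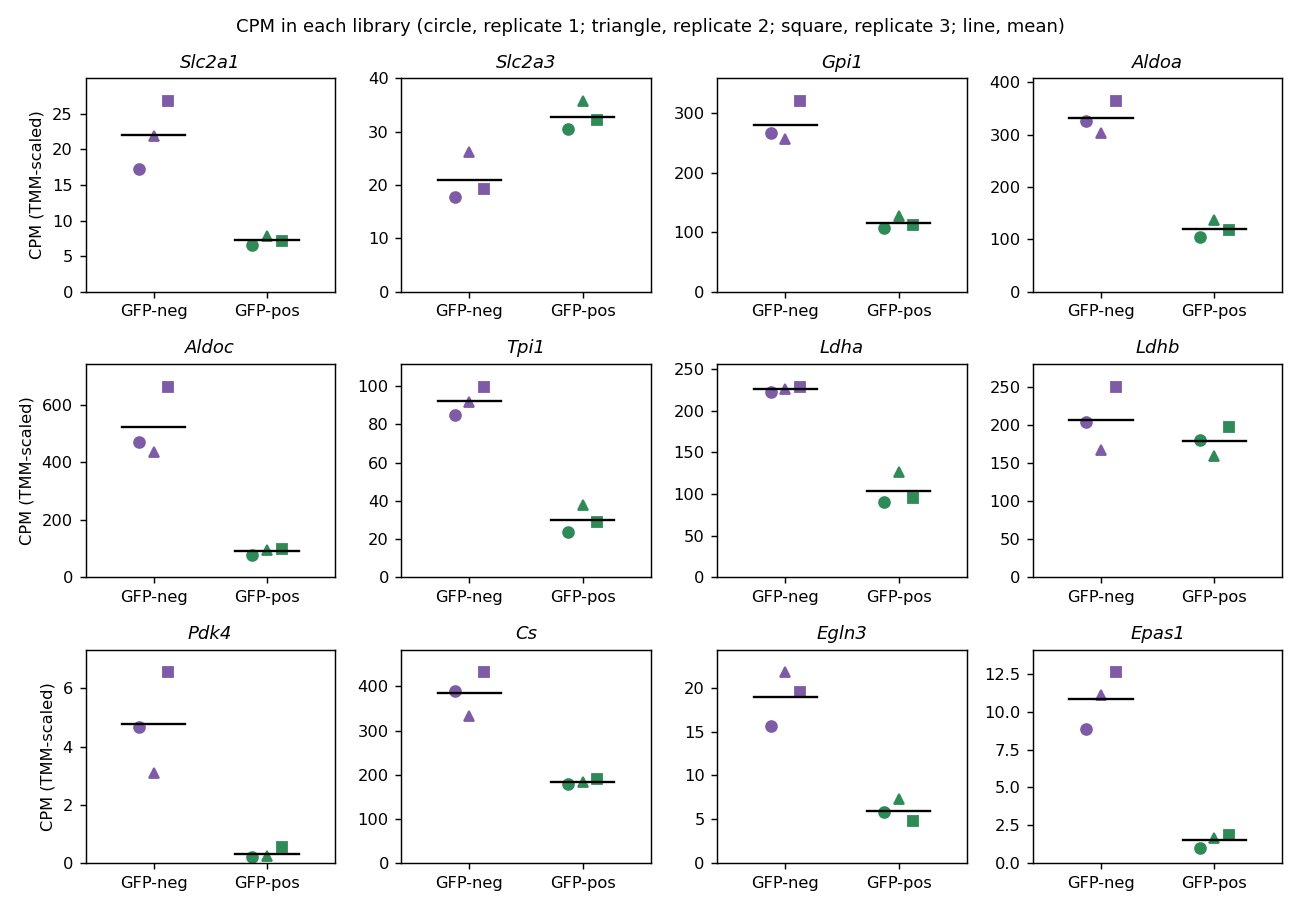
TMM-scaled CPM (y axes, starting at 0) of 12 members in each of the 6 libraries, GFP-negative in purple and GFP-positive in green; symbols mark the replicate and black lines the mean of 3. The groups are apart in every panel except that of Ldhb, and only Slc2a3 is higher in GFP-positive cells.

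Per length of transcript, the order of levels within the pathway differed between the fractions. With the longest coding transcript of each gene, Pkm was at 256 and Gapdh at 173 CPM per kb in GFP-positive cells, followed by Ldhb at 137 and Eno1 at 109. GFP-negative cells had Pkm and Gapdh at 329 CPM per kb each, and next Aldoa at 214 and Aldoc at 188. Aldoa and Aldoc stood at 77.3 and 32.5 CPM per kb in GFP-positive cells.

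Pyruvate entry and the TCA cycle were lower almost throughout: 12 of 14 members were lower and 0 higher, with a median log2 fold change of -0.57. The list summed to 1296, 1301 and 1334 CPM in the GFP-positive libraries, and 2065, 1820 and 2199 CPM in GFP-negative replicates 1, 2 and 3. The alpha and beta subunits of pyruvate dehydrogenase form the same E1 heterotetramer, yet had unlike values. Pdha1 (Entrez 18597) was at 172, 157 and 177 against 290, 256 and 312 CPM, a log2 fold change of -0.76 with SE 0.08 (edgeR adjusted p = 1.36e-04). Pdhb (Entrez 68263) was at 76.0, 69.9 and 70.4 against 77.2, 69.35 and 76.1 CPM. Its groups overlapped and its value of -0.04 (SE 0.06, edgeR adjusted p = 0.607) turned to 0.09 with the length and GC trend removed.

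Pyruvate dehydrogenase kinases switch the complex off by phosphorylating it, and their genes were at different levels. Pdk4 (Entrez 27273), induced by fasting and glucocorticoids in many tissues, had 7, 10 and 20 counts in GFP-positive and 154, 97 and 202 counts in GFP-negative libraries, or 0.191, 0.221 and 0.544 against 4.67, 3.09 and 6.55 CPM. The fold change of -3.91 on the log2 scale (SE 0.45, edgeR adjusted p = 1.74e-04), a 15.0-fold lower level, was the lowest of the 45 members. Pdk2, the constitutive kinase, had a value of -0.86 (edgeR adjusted p = 7.07e-04), at 26.9 to 29.4 against 42.9 to 61.6 CPM. Pdk1 (Entrez 228026), a HIF target, was at 11.01, 19.1 and 10.8 CPM in the GFP-positive libraries, and 16.6, 24.3 and 18.8 CPM in GFP-negative cells. The groups overlapped through replicate 2, and the value of -0.54 (SE 0.24) was not called (edgeR adjusted p = 0.0883). With the replicate block it was -0.57 and passed (edgeR adjusted p = 0.00247). It passed as well with DESeq2 (adjusted p = 0.0406), without GFP-positive replicate 2 at -0.86 (0.00607) and without replicate 2 of both fractions at -0.69 (9.31e-04).

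Among the enzymes of the cycle itself, citrate synthase had the lowest value. Cs (Entrez 12974) was at 179, 184 and 190 CPM in the GFP-positive libraries, and 391, 333 and 432 CPM in GFP-negative cells. The groups did not overlap, and the log2 fold change was -1.06 (SE 0.09, edgeR adjusted p = 4.27e-05). Ogdh, a subunit of the 2-oxoglutarate dehydrogenase complex, had a value of -0.91 (SE 0.10, edgeR adjusted p = 1.45e-04) and Idh3a, the catalytic subunit of NAD-dependent isocitrate dehydrogenase, one of -0.82 (SE 0.07, 3.78e-05). Other members had smaller values: fumarase (Fh1) -0.46, mitochondrial malate dehydrogenase (Mdh2) -0.42 and the succinyl-CoA ligase subunit Suclg1 -0.19. Suclg1 (edgeR adjusted p = 0.0340) lost its call in 9 of 18 alternative fits, including each single-library omission except that of GFP-negative replicate 2. With the length and GC trend removed it was -0.03 (edgeR adjusted p = 0.604). Its adjusted p was 0.117 without GFP-negative replicate 1, 0.0712 without GFP-negative replicate 3, and 0.0598, 0.126 and 0.0984 without GFP-positive replicates 1, 2 and 3. Mdh2 lost its call without replicate 1 (0.0693) or replicate 3 (0.0576) of both fractions.

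The NADP-dependent isocitrate dehydrogenases Idh1 (cytosol) and Idh2 (mitochondria) were lower by similar amounts, -0.41 and -0.40. Idh1 varied little within a group, at 140, 140 and 140 CPM in the GFP-positive libraries, and 176, 186 and 196 CPM in GFP-negative cells. Idh2 lost its call without replicate 1 of both fractions (edgeR adjusted p = 0.0651). Mdh1, the cytosolic malate dehydrogenase of the malate-aspartate shuttle, had a value of -0.61 (SE 0.08, edgeR adjusted p = 4.28e-04).

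The alpha subunit genes among the members were both lower, by very different amounts. Hif3a, another alpha subunit gene outside the members, was lower too, from 5 to 11 counts per GFP-positive library. Its log2 fold change was -3.16 (SE 0.32, edgeR adjusted p = 1.02e-04). Hif1a (Entrez 15251), encoding HIF-1alpha, was at 246, 251 and 253 CPM in the GFP-positive libraries, and 323, 312 and 342 CPM in the GFP-negative ones, a log2 fold change of -0.38 with SE 0.05 (edgeR adjusted p = 5.38e-04). Epas1 (Entrez 13819), encoding HIF-2alpha, was at 0.981, 1.68 and 1.85 against 8.86, 11.1 and 12.6 CPM. Its log2 fold change was -2.85 (SE 0.25, edgeR adjusted p = 4.64e-05), a 7.19-fold lower level. Epas1 is also strongly expressed by endothelial cells. The endothelial markers Cldn5 and Ly6c1 had 0 counts, and Cdh5 was at 0.0648 CPM or less in each library, while Flt1 was at 0.110 to 0.408 CPM in the GFP-positive libraries, and 1.59 to 7.78 CPM in GFP-negative cells. Flt1 was the only endothelial marker called among the 4 tested, and Kdr, Esam and Pecam1 had values of 0.38, 0.86 and 0.13. The part of endothelial RNA in the Epas1 value was not tested. Of the HIF subunits, protein abundance is set mainly by degradation, which mRNA counts do not measure.

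The hypoxia list as a whole had 6 of 9 members lower and 0 higher, with a median log2 fold change of -0.45. With the replicate block 8 were lower. Egln3 (Entrez 112407), a prolyl hydroxylase that is itself a HIF target, was at 5.78, 7.26 and 4.81 CPM in the GFP-positive libraries, and 15.6, 21.8 and 19.5 CPM in GFP-negative cells. It was lower in each GFP-positive library, with a value of -1.67 (SE 0.18, edgeR adjusted p = 1.32e-04). Ndrg1 (Entrez 17988), a stress-responsive gene also known from myelinating cells, was at 0.163, 0.729 and 0.272 against 2.03, 4.43 and 3.14 CPM, a log2 fold change of -2.99 with SE 0.52 (edgeR adjusted p = 0.00159) from 6 to 33 counts per GFP-positive library. P4ha1, a collagen prolyl hydroxylase subunit, and Ddit4, an inhibitor of mTORC1, were lower, at -0.61 and -0.45 (edgeR adjusted p = 0.00279 and 0.00170). The P4ha1 call was lost without replicate 3 of both fractions (0.0512).

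The other 3 hypoxia targets were not called. Vegfa (Entrez 22339), the angiogenic growth factor, was at 106, 155 and 117 CPM in the GFP-positive libraries, and 153, 183 and 149 CPM in GFP-negative cells, with overlapping groups. Its value of -0.36 (SE 0.14, edgeR adjusted p = 0.0606) was -0.37 with the replicate block and passed (edgeR adjusted p = 0.00198). It also passed with upper-quartile scaling (0.0472), with no count filter (0.0412), with DESeq2 (0.0266), without GFP-positive replicate 2 at -0.52 (0.00638) and without replicate 2 of both fractions (7.80e-04). Bnip3 (Entrez 12176), a mitophagy receptor, was at 15.9, 26.7 and 17.3 against 18.6, 29.8 and 23.4 CPM. The value of -0.26 (SE 0.23, edgeR adjusted p = 0.371) passed with the replicate block at -0.27 (edgeR adjusted p = 0.0315). Ankrd37 (Entrez 654824), a small ankyrin repeat protein and HIF-1 target, was at 1.01, 2.67 and 1.66 CPM in the GFP-positive libraries, and 0.516, 2.103 and 0.875 CPM in GFP-negative cells. Its groups overlapped and its value of 0.62 (SE 0.54, edgeR adjusted p = 0.355) was 1.38 without GFP-negative replicate 2, where it passed (0.0318).

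The core letters of hypoxia response elements, the short DNA motifs bound by HIF dimers, were looked for in the promoters. The motifs searched were ACGTG and GCGTG on both strands, read as CACGT and CACGC on the other strand, in the 250 bases before each annotated start (RefSeq, GRCm38.p6, a build other than that of the counts). ACGTG and CACGT overlap in CACGTG, which other factors also bind. In 45 of 62 member windows (72.6%) the bases after the start were found in a transcript of that gene. The starts of the other windows were not matched in this way. Of the 45 members 41 had an entry, and 37 of those (90.2%) held a match in at least 1 window, where 60.6% of tested genes with an entry did. Among genes with only 1 window the shares were 24 of 28 members and 56.99% of tested genes. Each motif searched holds the letters CG, and the members had higher levels than tested genes (median of the mean CPM 78.6 against 23.6). Neither the CG content of the windows nor the level was matched in these shares. A match is a run of letters, not evidence of binding. The windows of 4 hypoxia members with a single start are shown 5′ to 3′ with matches in capitals, because all 4 were highest in replicate 2 of both fractions. Egln3 and P4ha1 were lower in GFP-positive cells, Bnip3 was called lower only with the replicate block, and Ankrd37 was not called in either fit. The windows of Bnip3, Ankrd37, Egln3 and P4ha1 lie at chr7:138909507-138909756 (minus strand), chr8:45999851-46000100 (minus), chr12:54203875-54204124 (minus) and chr10:59323046-59323295 (plus).
Bnip3: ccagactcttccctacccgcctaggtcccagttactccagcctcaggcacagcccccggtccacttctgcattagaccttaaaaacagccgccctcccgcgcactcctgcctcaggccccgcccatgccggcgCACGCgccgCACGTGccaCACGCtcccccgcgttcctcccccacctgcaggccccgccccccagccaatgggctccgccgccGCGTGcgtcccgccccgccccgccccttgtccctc
Ankrd37: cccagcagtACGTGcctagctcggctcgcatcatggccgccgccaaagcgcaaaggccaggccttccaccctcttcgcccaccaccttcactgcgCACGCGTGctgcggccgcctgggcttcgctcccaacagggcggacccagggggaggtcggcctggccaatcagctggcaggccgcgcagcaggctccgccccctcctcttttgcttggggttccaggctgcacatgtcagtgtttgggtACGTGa
Egln3: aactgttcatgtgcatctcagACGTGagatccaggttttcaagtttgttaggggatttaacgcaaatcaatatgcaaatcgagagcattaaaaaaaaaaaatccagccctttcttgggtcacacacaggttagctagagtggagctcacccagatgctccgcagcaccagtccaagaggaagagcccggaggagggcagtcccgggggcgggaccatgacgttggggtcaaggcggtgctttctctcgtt
P4ha1: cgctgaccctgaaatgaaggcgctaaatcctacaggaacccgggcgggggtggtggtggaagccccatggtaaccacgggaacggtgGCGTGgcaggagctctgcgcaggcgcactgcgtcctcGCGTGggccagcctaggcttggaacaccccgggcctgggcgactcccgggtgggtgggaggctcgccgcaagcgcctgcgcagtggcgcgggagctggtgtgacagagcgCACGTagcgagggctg
Overlapping matches were each counted, so CACGTG in Bnip3 and Hif1a and CACGCGTG in Ankrd37 gave 2 matches each. Counted so, Bnip3 held 5 matches and Ankrd37 4, against 1 in Egln3 and 3 in P4ha1. Hif1a and Ddit4 also have a single start but were not highest in replicate 2 of both fractions, and they held 3 and 2. A link between matches and replicate 2 was not tested.

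Replicate 2 was the highest library for several of the 9 hypoxia members, a pattern singled out after its values were seen and absent from the longer hypoxia list. In 6 of the 9 hypoxia members (Vegfa, Bnip3, Egln3, Ndrg1, Ankrd37 and P4ha1) the library numbered 315 was the highest of its group in both fractions, where 17.7% of all tested genes were. Of the 39 other hypoxia genes tested, 6 (15.4%) were highest there in both fractions. Of the glycolysis members 7 of 22 were (Hk2, Pfkl, Pfkp, Pfkfb3, Eno1, Slc2a3 and Slc16a3), and of the TCA list only Pdk1. Relative to the mean of replicates 1 and 3, replicate 2 was higher by 0.81 for Ankrd37, 0.78 for Ndrg1, 0.67 for Bnip3 and 0.78 for Pdk1 in GFP-positive cells, on the scale of log2(CPM + 0.5). In GFP-negative cells the same genes were higher by 1.14, 0.70, 0.51 and 0.45. The TCA members Pdha1, Pdhb, Pdk2, Idh2, Suclg1 and Mdh1 were instead lowest in replicate 2 of both fractions, 6 of 14 where 17.4% of all tested genes were. Hif1a itself differed by 0.01 and -0.09 between replicate 2 and the others with and without GFP. The replicate numbers are shared by label, and what distinguished number 315 was not tested.

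**Figure D3:**
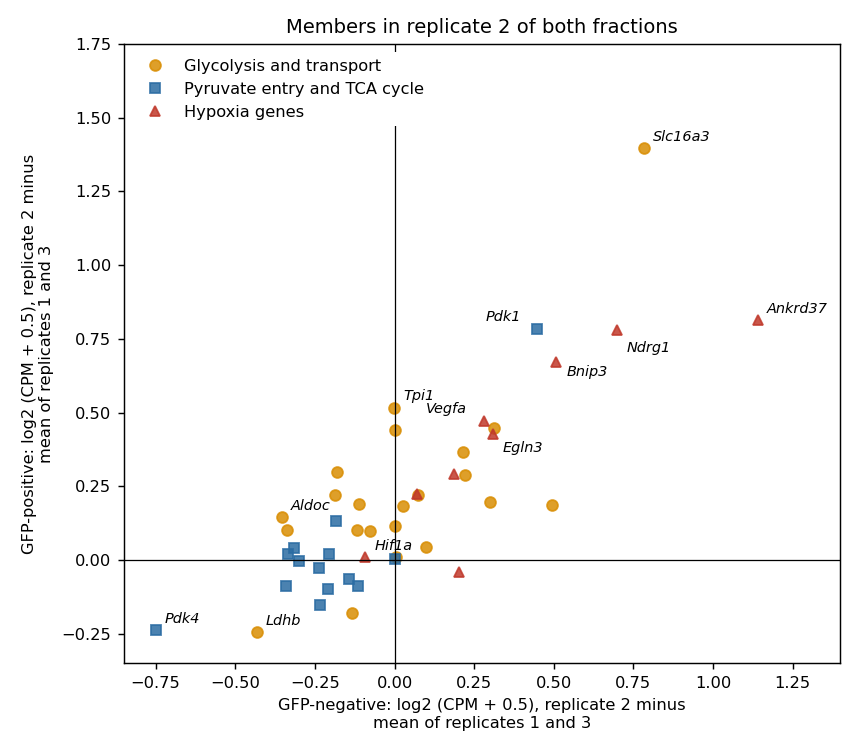
Each point is a member; axes give log2(CPM + 0.5) of replicate 2 minus the mean of replicates 1 and 3, in GFP-negative (x) and GFP-positive (y) cells. Pdk1, Slc16a3 and the hypoxia genes (red triangles) other than Ddit4 and Hif1a lie above 0 on both axes, and most TCA genes (blue squares) lie left of 0.

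Ratios of related genes, in which transcript length and library size cancel between the fractions, were compared for 13 pairs. The difference of the log2 ratio between fractions was tested by an exact two-sided permutation test over libraries, which cannot go below p = 0.1 with 3 against 3. In 6 of 13 pairs the groups did not overlap and p was 0.1, the smallest possible, with 0.217 after adjustment over the 13 pairs. The log2 ratio of Aldoc to Aldoa was -0.40 ± 0.13 with GFP and 0.63 ± 0.20 without (SD, n = 3). For Ldhb to Ldha it was 0.79 ± 0.40 against -0.15 ± 0.28, and for Slc2a3 to Slc2a1 2.11 ± 0.02 against -0.06 ± 0.37 (SD, n = 3).

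The ratio of Epas1 to Hif1a differed by -2.14 between the fractions on the log2 scale, that of Pdk4 to Pdk1 by -2.099 and that of Mdh1 to Mdh2 by -0.19. Groups overlapped for Eno2 to Eno1, Hk2 to Hk1, the phosphofructokinase pairs, Slc16a3 to Slc16a1, Idh1 to Idh2 and Pdk2 to Pdk1. Within replicate numbers the difference had the same sign in all 3 for Pfkm to Pfkl (-0.30, -0.20 and -0.26), Pfkp to Pfkl (0.21, 0.38 and 0.69) and Pdk2 to Pdk1 (-0.13, -0.33 and -0.36). An exact two-sided sign-flip permutation test over 3 numbers cannot go below p = 0.25, which these 3 pairs and the 6 without overlap reached. Pdk4 had under 1 CPM in each GFP-positive library, so its ratio depends on the pseudocount of 0.5 CPM: the difference was -3.00 with 0.1 and -1.01 with 2.

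**Figure D4:**
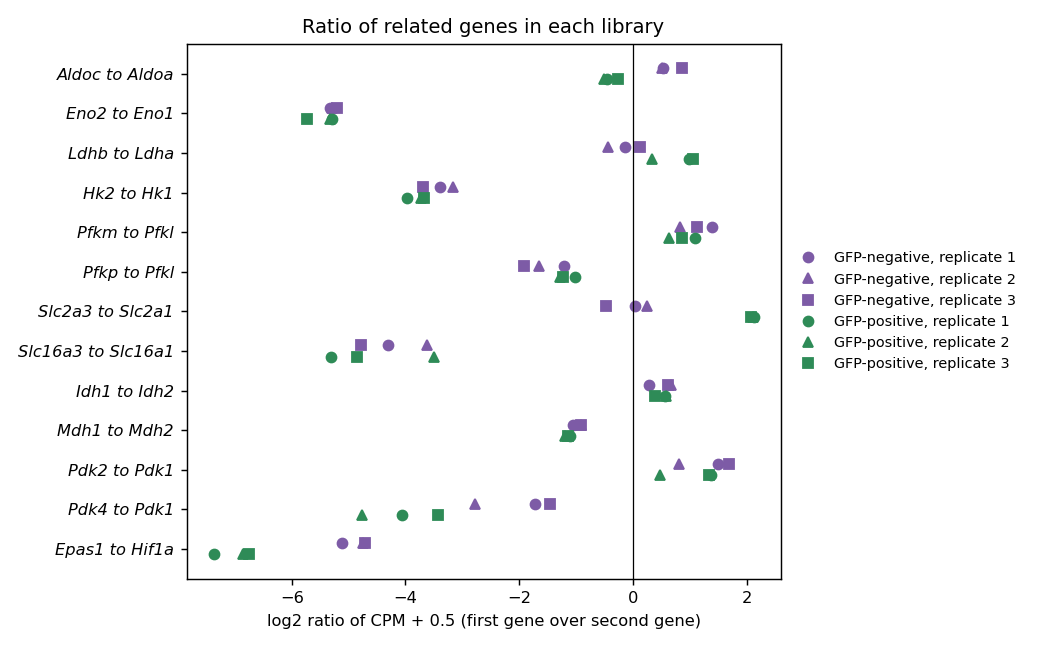
Log2 ratio of CPM + 0.5 (x axis) of 13 pairs of related genes in each library, GFP-negative in purple and GFP-positive in green. The fractions are apart for Aldoc to Aldoa, Ldhb to Ldha, Slc2a3 to Slc2a1, Mdh1 to Mdh2, Pdk4 to Pdk1 and Epas1 to Hif1a, and overlap in the other 7 pairs.

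Other genes of these pathways were read from lists that hold no member. Over all tested genes 29.2% were lower and 26.1% higher. Of 30 further pyruvate and TCA genes 22 were lower (73.3%) and 3 higher (10%), with a median log2 fold change of -0.45. Me1, the cytosolic malic enzyme, was at 26.3, 27.2 and 29.4 CPM in the GFP-positive libraries, and 137, 103 and 160 CPM in GFP-negative cells, a value of -2.27 (SE 0.15). Glud1, glutamate dehydrogenase, had a value of -1.59. Pdp1, the phosphatase that reactivates pyruvate dehydrogenase, was higher by 0.98 (SE 0.07, edgeR adjusted p = 2.32e-05), at 26.9, 25.9 and 27.0 against 13.8, 13.4 and 13.3 CPM.

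Glycogen genes were lower in 15 (78.9%) and higher in 1 (5.26%) of 19 tested. Ppp1r3c, a subunit that targets a phosphatase to glycogen, stood at 4.71, 5.96 and 5.74 CPM in the GFP-positive libraries, and 67.8, 46.1 and 91.8 CPM in the GFP-negative ones, a log2 fold change of -3.64 with SE 0.25 (edgeR adjusted p = 1.47e-05). Pygm, the muscle-type glycogen phosphorylase also found in astrocytes, had a value of -3.05, and Ugp2, which makes UDP-glucose, one of -1.40. Pgm2l1, a glucose 1,6-bisphosphate synthase, was higher by 1.04 (SE 0.10). The astrocyte markers given above moved the same way as this list, and their part was not tested.

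The remaining lists were mixed. Of 21 tested other glycolysis and gluconeogenesis genes 6 were lower (28.6%) and 7 higher (33.3%), with a median of 0.16. The lower share was close to the 29.2% of all tested genes, of which 26.1% were higher. Pyruvate carboxylase (Pcx) had a value of -1.77 and mitochondrial phosphoenolpyruvate carboxykinase (Pck2) one of -1.37, while bisphosphoglycerate mutase (Bpgm) was higher by 0.77. Each of these values kept its call in every alternative fit. Without replicate 1, and without replicate 3, of both fractions 3 genes of this list were lower. In the pentose phosphate pathway 4 of 8 genes were lower (50%) and 1 higher (12.5%). Transketolase (Tkt) had a value of -0.56 and the epimerase Rpe one of -0.47, and the isomerase Rpia was higher by 0.91.

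Of 39 further hypoxia genes tested, 19 were lower (48.7%) and 11 higher (28.2%), with a median of -0.25. The higher share was close to the 26.1% of all tested genes, of which 29.2% were lower. The transcription repressor Bhlhe40 was at 18.3, 18.5 and 14.0 against 111, 72.7 and 111 CPM, a log2 fold change of -2.54 (SE 0.18), and the mitochondrial adenylate kinase Ak4 had a value of -1.81. The histone demethylase Kdm4b was higher by 0.77 (SE 0.06, edgeR adjusted p = 3.19e-05). Without replicate 1, and without replicate 3, of both fractions 6 genes of this list were higher.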

How the data were processed

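The authors deposited 1 table of unnormalized counts, whole reads for each gene and library. The submitters' processing notes name the mm39 build, featureCounts 2.0.0 and TopHat2 2.1.1, beside tools for read conversion and quality reports. Per the labels' protocols, libraries were made with a stranded SMART-Seq kit. Which annotation and strand setting were used, and what happened to multiply mapped reads, is not given in the sources used here. Counts hold PCR copies, so depth covers counting error only.

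Counts were tested with edgeR 4.0.16 (R 4.3.3): filterByExpr (14554 genes kept), TMM scaling, the quasi-likelihood F test, and p-values adjusted by Benjamini-Hochberg over all tested genes, with a threshold of 0.05. Standard errors were derived from the fold change and F. Same-numbered libraries deviated together from their group means (correlations of 0.271, 0.433 and 0.233 across genes, above the limit of 0.1). Of the unlike numbers, GFP-positive replicate 3 with GFP-negative replicate 1 also passed that limit (0.177), and the others were at 0.0373 or less. The numbers were taken to pair the samples, but the main fit left them out. Calls and fold changes in the text are from that unpaired fit unless stated. The blocked value is given where it changes a call. No libraries of a group agreed within counting noise (chi-square over its degrees of freedom was 9.83 to 34.2). Transcript lengths are the longest coding transcripts of GENCODE M21 (GRCm38). Alternatives used DESeq2 1.42.0 and limma 3.58.1. The members and lists were chosen with earlier results of these data known. All 45 members are reported. From each other pathway list the 3 genes with the smallest p and the called gene of opposite direction with the smallest p are named. Hif3a is named beside these as an alpha subunit gene. Mitochondrially encoded genes were not analysed here.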

Additional observations from a re-analysis of the deposited data

How the results depend on the processing

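Of the 35 called members, 25 kept their call in all 18 alternative fits, and 7 of the 10 members that were not called passed in at least 1. The medians of all genes lay within 0.1 of 0 on the log2 scale under every scaling tried. These scalings assume that most genes do not differ, so such medians cannot show whether the fractions differ in RNA content. With the replicate block, 18 glycolysis, 13 TCA and 8 hypoxia members were lower, against 16, 12 and 6. Over all tested genes 4422 were lower with the block, against 4254. The length and GC correction and the scaling with the median of all genes at 0 were chosen after seeing the data. With the length and GC trend removed, 2 pentose phosphate and 2 glycogen genes were higher, and Pdhb turned to 0.0939. When a library or a number was left out, 0 to 1 glycolysis members were higher (0 without replicate 3), 0 to 1 hypoxia members were higher (1 without GFP-negative replicate 2) and 1 to 2 glycogen genes were higher. Other glycolysis genes ran from 4 to 9 higher and 3 to 6 lower, pentose phosphate genes from 2 to 4 lower and other hypoxia genes from 6 to 12 higher. Among all genes 2450 to 4169 were higher (2450 without replicate 3). Of the 7 ratios whose groups overlapped, 3 turned sign: Slc16a3 to Slc16a1 was 0.14 with a pseudocount of 2 CPM and ran from -0.84 to 0.0575 when libraries were left out, Idh1 to Idh2 from -0.16 to 0.0908 and Pdk2 to Pdk1 from -0.53 to 0.0207 (above 0 only without GFP-positive replicate 2). The cause was not tested in any of these. Low counts limit Slc16a3, Pdk4, Ndrg1, Ankrd37 and Epas1.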
